A study of Homo sapiens with 12 samples.

Results

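Epithelial junction and polarity genes are described here as a set of 38 protein-coding genes, found by gene symbol among the 62656 genes of the deposited count table and the 38828 genes of the deposited FPKM table. All 38 were matched and all 38 passed the low-count filter in every comparison. The series holds 12 RNA-seq libraries, 3 in each of 4 groups, from the colorectal cancer lines HCT116 and LoVo, which are established human cell lines. The HCT116 groups were labelled as control and as overexpression (OE) of SLERT, a long non-coding RNA capped at both ends by snoRNAs and processed from introns of TBRG4. The LoVo groups were labelled as control and as knockdown (KD) of SLERT, and the column headings name short hairpin constructs for both. The columns taken as HCT116 control carry an empty-vector heading. Each line is a single line, and the labels do not say whether modified cells were a clone or a pool, nor how long they were grown. The study asked what SLERT does in the spread of colorectal cancer to the liver, per its title. Separate cultures are not mentioned for the libraries within a group, so the p-values below reflect variation among libraries that may be technical.

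Epithelial cells hold to each other through layered junctions. Tight junctions seal the gap between neighbours with claudins and with occludin and its relatives, which are tied to the actin belt by ZO proteins such as TJP1. Adherens junctions join cells through E-cadherin (CDH1) and its catenins, and desmosomes join them through desmosomal cadherins that plakoglobin (JUP), plakophilins and desmoplakin (DSP) link to keratin filaments. Polarity complexes of the Crumbs, Par and Scribble families set apart the apical and lateral surfaces. Transcription factors such as ELF3, the grainyhead-like factors and OVOL1, and the splicing regulators ESRP1 and ESRP2, maintain this epithelial program. SNAI and ZEB factors repress many of these genes through E-boxes in their promoters during epithelial-mesenchymal transition (EMT).

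The promoter windows of 5 members are printed because their genes differ in how they moved in LoVo and in how many copies they carry of the E-box CAGGTG, the letters that SNAI and ZEB factors bind. They come from RefSeq on GRCh38.p14, run from 250 bases before to 50 bases after an annotated start site, and are written 5′ to 3′ on the gene's strand with CAGGTG, on either strand, in capitals. CLDN4 (chr7:73830746-73831045, + strand) has 0 matches and RAB25 (chr1:156060910-156061209, + strand) has 2. CLDN7 (chr17:7262429-7262728, - strand, the window with more matches of 2) has 5 matches, and CRB3 (chr19:6464021-6464320, + strand) also has 5. JUP (chr17:41785927-41786226, - strand, the window with more matches of 2) has 2 matches.
CLDN4: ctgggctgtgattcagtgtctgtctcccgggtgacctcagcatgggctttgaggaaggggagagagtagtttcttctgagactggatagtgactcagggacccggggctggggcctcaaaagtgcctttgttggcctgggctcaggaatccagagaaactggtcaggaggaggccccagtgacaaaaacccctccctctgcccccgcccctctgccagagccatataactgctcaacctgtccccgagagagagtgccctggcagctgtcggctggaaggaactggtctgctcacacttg
RAB25: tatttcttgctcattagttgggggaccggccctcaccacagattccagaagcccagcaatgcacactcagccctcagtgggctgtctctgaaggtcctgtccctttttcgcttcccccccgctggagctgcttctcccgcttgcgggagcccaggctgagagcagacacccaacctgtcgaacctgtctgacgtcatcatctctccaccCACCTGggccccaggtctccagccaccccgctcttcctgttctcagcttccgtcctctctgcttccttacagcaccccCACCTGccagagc
CLDN7: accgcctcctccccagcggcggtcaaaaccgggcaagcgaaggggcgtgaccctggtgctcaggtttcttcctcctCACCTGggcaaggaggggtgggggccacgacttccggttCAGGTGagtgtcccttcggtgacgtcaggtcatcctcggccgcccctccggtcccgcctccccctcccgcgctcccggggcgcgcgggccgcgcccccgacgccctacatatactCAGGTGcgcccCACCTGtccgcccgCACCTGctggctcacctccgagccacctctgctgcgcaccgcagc
CRB3: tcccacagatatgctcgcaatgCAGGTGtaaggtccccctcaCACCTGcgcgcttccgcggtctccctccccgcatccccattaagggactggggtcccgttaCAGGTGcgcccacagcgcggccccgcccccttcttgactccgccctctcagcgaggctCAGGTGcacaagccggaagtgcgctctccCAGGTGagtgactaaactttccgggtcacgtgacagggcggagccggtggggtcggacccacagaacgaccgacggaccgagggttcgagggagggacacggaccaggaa
JUP: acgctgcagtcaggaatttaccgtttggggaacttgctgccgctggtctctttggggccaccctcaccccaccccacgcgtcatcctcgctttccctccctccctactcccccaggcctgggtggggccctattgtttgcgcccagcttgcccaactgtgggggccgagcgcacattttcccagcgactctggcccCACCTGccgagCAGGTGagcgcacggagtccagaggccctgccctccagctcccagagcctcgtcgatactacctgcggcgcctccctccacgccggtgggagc

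RefSeq windows were found for 23 of the 38 members, 35 windows in all, and CDH1 was not among these members. The E-box was present in 14 of the 35 windows (40%), against 7231 of all 35116 windows of the table (20.6%). Counted by gene, 13 of 23 members had it in at least 1 window (56.5%), against 24.1% of the 27305 genes of the table. A gene with more windows has more places for a match, and the number of windows per gene was not matched. The windows of members also held more G and C, with a median of 65.7% against 58.7% in all windows, and its part in the E-box share was not tested. By their change in LoVo, 6 of the 9 members with a window that were higher in the libraries labelled KD had a match, as did the 1 that was lower and 6 of the 13 that were not called. Of the windows printed, CLDN4 with 0 matches, RAB25 with 2 and CLDN7 with 5 belong to genes that rose, JUP with 2 to a gene that fell and CRB3 with 5 to a gene that was not called. The palindrome AACCGGTT, the motif of grainyhead factors, was in 0 of the 35 windows and in 47 of all windows (0.134%). A match is a description of the letters and not a bound site.

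The targeted locus was checked first. SNORA5C, a snoRNA end of SLERT, had 4, 4 and 8 counts in the HCT116 controls and 551, 661 and 714 counts in the OE libraries, a log2 fold change of 6.97 (edgeR adjusted p = 3.50e-19). SNORA5A, the other end, had 0 counts in all HCT116 controls and 39, 46 and 57 counts with OE. TBRG4, the host gene, was at 165, 159 and 178 CPM (counts scaled to the size of the library) in the HCT116 controls and at 251, 258 and 279 CPM with OE. All 3 genes were higher in every OE library than in every HCT116 control. In LoVo, SNORA5C had 9, 9 and 19 counts in the controls and 11, 14 and 12 in the libraries labelled KD. LoVo SNORA5A had 3, 7 and 2 counts against 1, 8 and 1. TBRG4 was at 220.4, 215 and 216 CPM in the LoVo controls and at 248, 215 and 226 CPM in the libraries labelled KD. A fall of the locus was therefore not seen in LoVo at these counts. SLERT itself was not looked up by name, and its snoRNA ends and host gene are given in its place. Whether these genes report the level of SLERT in LoVo is not known. Every LoVo direction below is that of the libraries labelled KD.

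Total counts ran from 14.46 to 17.23 M per library. Libraries of a group correlated at 0.9943 to 0.9959 on log2 CPM, and every pair differed by more than sampling noise. The most unlike pair within a group was libraries 1 and 2 labelled KD, with a chi-square per degree of freedom of 7.234 against 2.462 to 4.973 for the other pairs. Of 12 colorectal epithelium markers, 11 averaged at least 1 CPM in LoVo, and 6 in the HCT116 controls, where CDX1 and FABP1 had 0 counts. Retina markers, looked at because the protocol text speaks of retinas while every other label names a colorectal line, summed to 4.8 to 16.6 CPM per library. Leukocyte markers summed to 1.63 to 3.98 CPM. Fibroblast and endothelial markers summed to 74.3 to 89.3 CPM in HCT116, 14.7 to 15.7 CPM in the LoVo controls and 3.59 to 4.9 CPM in the libraries labelled KD.

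Per unit of gene length, the members spanned a wide range. EPCAM, an adhesion molecule of simple epithelia, had the highest level in every group, with mean FPKM (the deposited counts per gene length and library total) of 80.4 in HCT116 controls, 80.0 with OE, 116 in LoVo controls and 152 in the libraries labelled KD. The lowest level in HCT116 was that of CLDN1, at 0.235 FPKM in controls and 0.16 with OE. In LoVo it was that of GRHL1, at 0.555 and 0.524 FPKM. The median member stood at 12.5 FPKM in HCT116 controls, 11.6 with OE, 11.9 in LoVo controls and 14.9 in the libraries labelled KD. At least 1 FPKM was reached by 36 members in both HCT116 groups and by 35 in both LoVo groups. FPKM depends on the length the authors used, which for OCLN was 11259 bases against 6761 exonic bases in GENCODE v29 and for CTNND1 15212 against 8798, and which was also longer for DSG2, PKP2 and DSP. Their FPKM would be higher on the shorter lengths. CTNND1, listed at 0.711 FPKM in HCT116 controls and 0.669 in LoVo controls, would then pass 1 FPKM and add to these counts. It had few counts for a core catenin gene, and the annotation it was counted on is not known, so its level is uncertain.

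**Figure D1:**
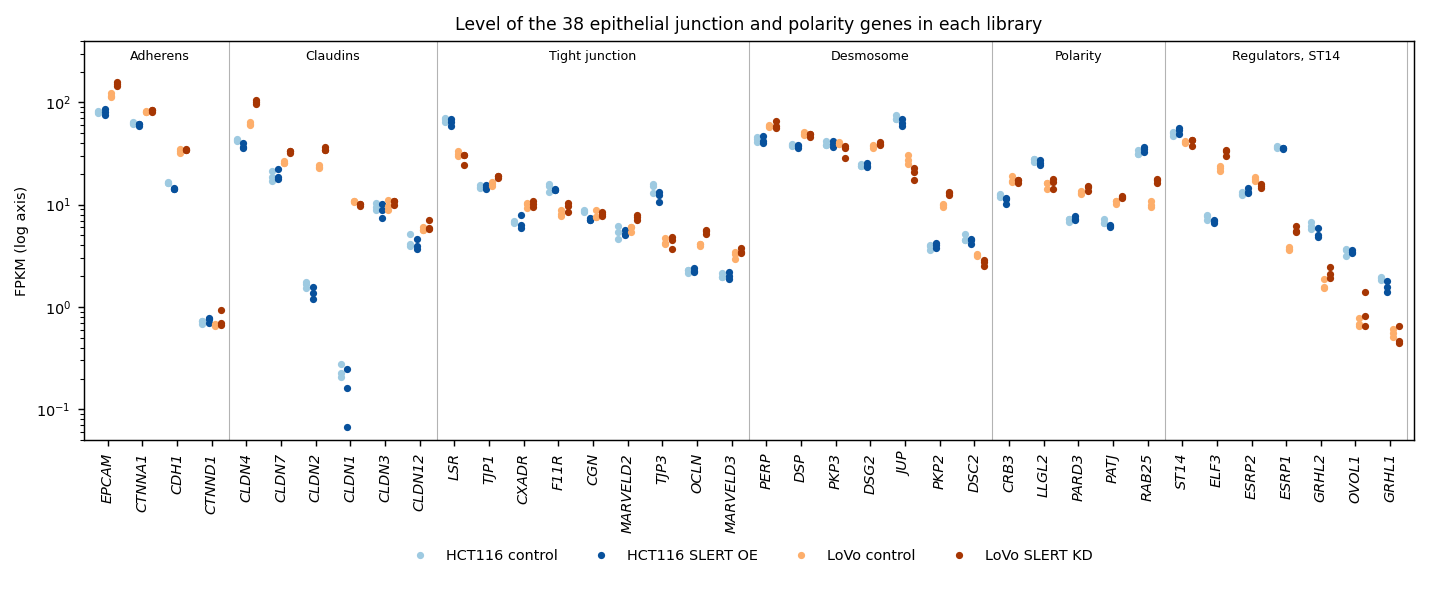
Level of each of the 38 genes in each of the 12 libraries, in FPKM on a log axis, grouped by role and coloured by group, with 1 point per library. EPCAM lies highest in every group, and CLDN1, CLDN2 and ESRP1 show the widest gaps between HCT116 and LoVo.

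The control libraries of the 2 lines were compared next, to give the starting level of each member. These controls are also the controls of the comparisons that follow. Of the 38 members, 33 were called (86.8%), where 79.0% of all 17143 genes tested were called and 82.9% of those at least as abundant as the lowest member. LoVo was higher for 20 members (52.6%, against 39.0% of all genes) and lower for 13 (34.2%, against 39.9%), and 12 members differed at least 2-fold, as 39.7% of all genes did. The lines differed for most genes, so the members' share is close to that of genes at large. By role the directions varied. Of 6 claudins 5 were higher in LoVo and none lower, whereas of the 7 regulators, ST14 included, 2 were higher and 5 lower, with a median log2 difference of -1.87.

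CLDN1, a sealing claudin, was low in HCT116, at 0.838, 1.02 and 0.767 CPM, and stood at 37.7, 37.6 and 36.9 CPM in LoVo. This 42.4-fold difference (log2 5.41, SE 0.15, edgeR adjusted p = 2.67e-24) rested on 14, 17 and 12 counts in HCT116. CLDN2, which forms cation pores, was at 5.87, 5.31 and 6.2 CPM in HCT116 and at 75.6, 75.2 and 79.5 CPM in LoVo, 13.3-fold more (adjusted p = 9.08e-26). CLDN4 and CLDN7 were higher in LoVo by 0.45 and 0.35 on the log2 scale, while CLDN3 overlapped, at 11.6 to 13.6 CPM in HCT116 and 10.7 to 13.4 CPM in LoVo. CLDN1 and CLDN2 thus differed by far more between the lines than CLDN3, CLDN4 and CLDN7.

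ESRP1, which directs epithelial splicing, showed the opposite order. It was at 184, 188 and 179.7 CPM in HCT116 and at 16.6, 18 and 17.3 CPM in LoVo, 10.6-fold lower (log2 -3.40, SE 0.066, adjusted p = 2.47e-28). Its paralogue ESRP2 was higher in LoVo (log2 0.38, adjusted p = 1.67e-06). OVOL1, GRHL2 and GRHL1, all transcription factors of the epithelial program, were lower in LoVo by log2 -2.39, -2.01 and -1.87. ELF3, an epithelial ETS factor, was higher by 1.48. RAB25, a small GTPase of apical recycling, was lower in LoVo (log2 -1.77), as were the tight junction proteins TJP3 (-1.85), LSR (-1.20) and F11R (-0.95) and the polarity protein LLGL2 (-0.91). JUP was at 382, 350.1 and 346 CPM in HCT116 and at 143, 118 and 129 CPM in LoVo (log2 -1.46, adjusted p = 1.17e-19).

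Core adhesion genes differed less than CLDN1, CLDN2 and ESRP1 did. CDH1 was at 103, 102 and 105 CPM in HCT116 and at 201, 193 and 188 CPM in LoVo, 1.89-fold higher (adjusted p = 5.14e-16). The desmosomal PKP2 (log2 1.26) and DSG2 (0.51), the polarity genes PARD3 (0.78) and PATJ (0.54), and OCLN (0.75) and EPCAM (0.44) were also higher in LoVo. The remaining calls lay between 0.26 and 0.57 above (DSP, CTNNA1, CLDN12, PERP, CRB3, CXADR and MARVELD3) or between 0.22 and 0.64 below (CGN, ST14 and DSC2). Leaving out HCT116 control 1 ended the call of CLDN12 (adjusted p = 0.0653), and that of CGN ended with limma on both FPKM scales, where its log2 difference was as small as -0.11 (adjusted p up to 0.139). TJP1 (log2 -0.01, 95% interval -0.12 to 0.10), MARVELD2, PKP3, CLDN3 and CTNND1 were not called.

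In HCT116, no member was called with SLERT overexpression, where 0.914% of the 15980 genes tested were called. DESeq2 also called 0, of the 30 members to which it gave an adjusted p, and 7 of 38 members (18.4%) had an unadjusted p under 0.05, against 14.4% of all genes. Log2 fold changes ran from -0.53 for CLDN1, which rested on 4 to 17 counts per library, to 0.13 for RAB25. Their median was -0.03, with 16 above 0 and 22 below, and the median of all genes was -0.00232. The median size of a member's change, 0.0748, was smaller than the 0.108 of all genes, which were not matched to the members for level.

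CDH1 was at 103, 102 and 105 CPM in the controls and at 89.6, 90.3 and 93.4 CPM with OE, so the groups did not overlap. Its log2 fold change was -0.17 (95% interval -0.29 to -0.05, edgeR adjusted p = 0.145). EPCAM stood at 196, 204 and 202 CPM against 188, 215 and 203 CPM, with a log2 fold change of 0.02 (interval -0.10 to 0.13). The tight junction genes OCLN and TJP1 overlapped as well, OCLN at 24.9, 26.8 and 26.5 CPM against 26.3, 27.9 and 25.7 CPM, and TJP1 at 182, 169 and 172 CPM against 173, 181 and 169 CPM. The interval of OCLN ran from -0.14 to 0.22 and that of TJP1 from -0.11 to 0.12.

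The smallest p belonged to CGN, cingulin, which links tight junctions to actomyosin. It was at 59.4, 60.5 and 57.9 CPM in the controls and at 50.9, 48.7 and 49.2 CPM with OE (log2 fold change -0.25, SE 0.068, edgeR adjusted p = 0.0702). TJP3, a ZO protein, was at 64.9, 62 and 52.9 CPM against 54, 43.8 and 51.7 CPM (log2 fold change -0.26, adjusted p = 0.121). HCT116 control 3 lay within the OE range, so the groups overlapped. Without this library, TJP3 was called with a log2 fold change of -0.34 (adjusted p = 0.0297), the only member called in any alternative for HCT116. The others under an unadjusted 0.05 were CLDN4 (-0.17), GRHL2 (-0.23), JUP (-0.14) and GRHL1 (-0.25), which lay below 0 like CDH1, CGN and TJP3.

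In LoVo, 17 of the 38 members were called between the libraries labelled KD and the controls (44.7%), where 26.3% of the 16253 genes tested were called. Of these, 15 were higher (39.5%, against 12.6% of all genes) and 2 were lower (5.26%, against 13.7%). Among genes at least as abundant as the lowest member, 32.0% were called, 15.7% higher and 16.3% lower. The members, and the wider lists below, were chosen with earlier results of these data known. The part of that choice in these shares was not tested. No member changed 2-fold, as 2.34% of all genes did. The median log2 fold change of members was 0.135, against 0.000491 for all genes, and 29 members lay above 0 and 9 below. Called members differed by a median of 0.42 on the log2 scale, and all called genes by 0.36. The members' summed level was 4550 to 4670 CPM in the controls and 5120 to 5310 CPM in the libraries labelled KD, while it was 4390 to 4510 CPM in HCT116 controls and 4290 to 4380 CPM with OE. Colorectal epithelium markers summed to 7460 to 8020 CPM in the LoVo controls and to 6350 to 7000 CPM in the libraries labelled KD, a sum of which KRT8 alone made 4847 and 3893 CPM on average. Of the 11 tested, CDH17 (0.78) and GPA33 (0.23) were higher, and KRT20 (-1.08), VIL1 (-0.54), CDX2 (-0.48), KRT8 (-0.32), KRT19 (-0.32) and KRT18 (-0.16) were lower. Their part in the members' changes was not tested. In bulk RNA, fewer cells of a kind and less RNA per cell cannot be told apart.

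**Figure D2:**
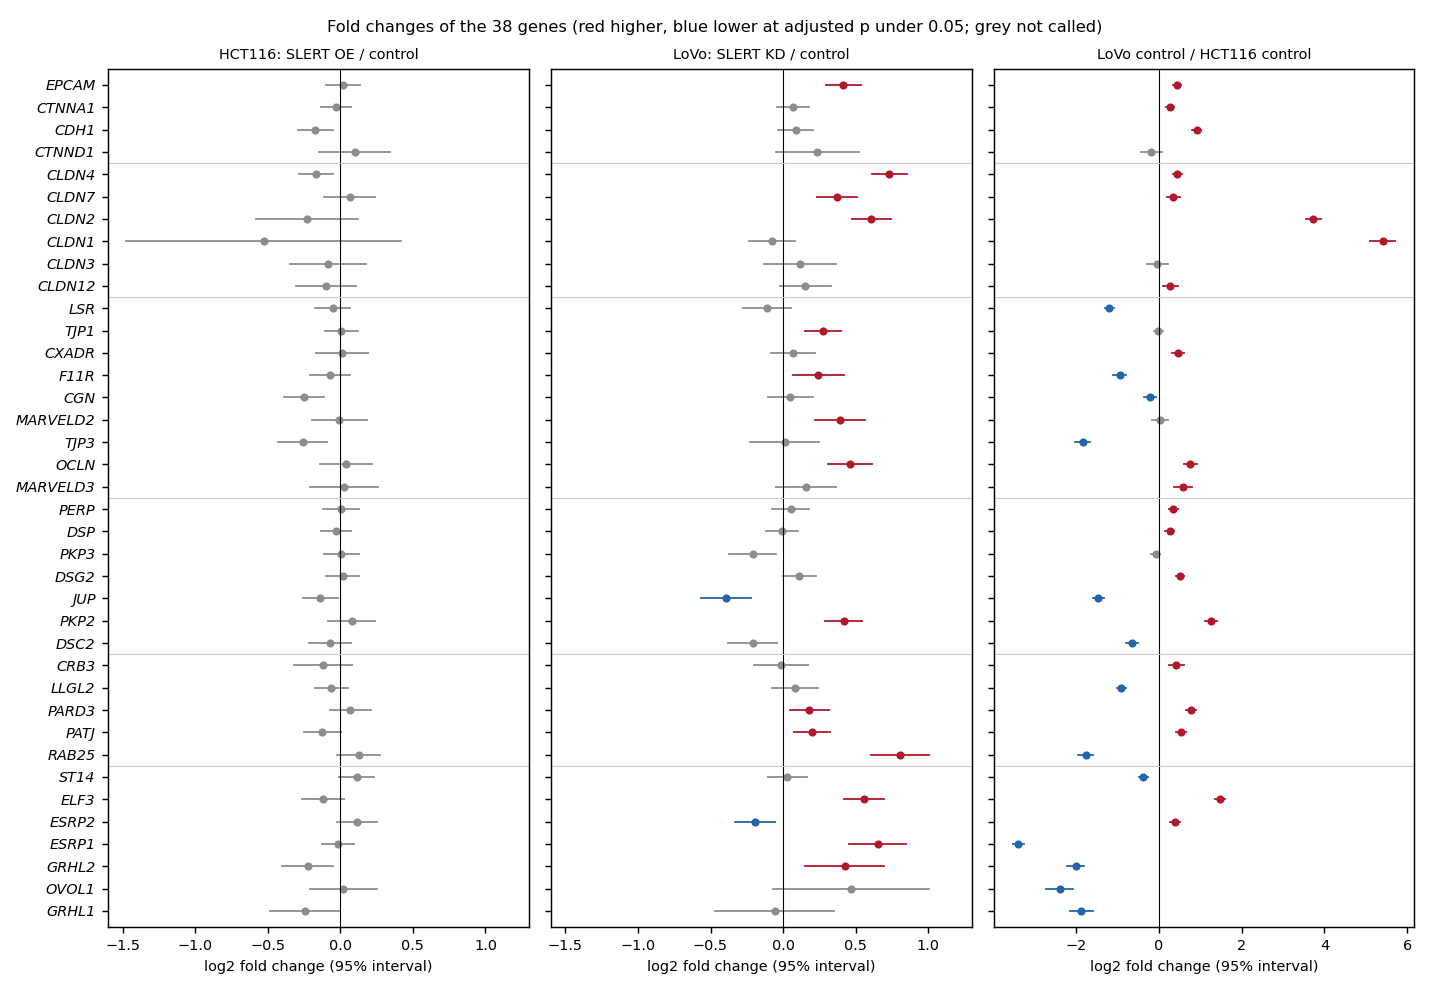
Log2 fold change of each of the 38 genes in HCT116 (SLERT OE against control), in LoVo (libraries labelled KD against control), and between the control libraries of LoVo and HCT116. Points are edgeR estimates, bars are 95% intervals, red marks genes called higher, blue lower and grey not called: no gene is coloured in HCT116, and 15 of the 17 coloured in LoVo lie above 0.

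Claudins held some of the largest changes. CLDN4, a sealing claudin of the colon, was at 276, 271 and 294 CPM in the LoVo controls and at 493, 467 and 444 CPM in the libraries labelled KD, so every KD-labelled library lay above every control. The rise was 1.66-fold (log2 0.73, SE 0.058, edgeR adjusted p = 2.22e-09). CLDN2 rose from 75.6, 75.2 and 79.5 CPM to 124, 115 and 113 CPM (log2 0.61, SE 0.065, adjusted p = 2.42e-07). CLDN7 rose from 60.9, 63.7 and 60.9 CPM to 81.6, 81.8 and 77.6 CPM (log2 0.37, adjusted p = 0.000236). The other 3 claudins were not called. CLDN1, the claudin that most separates the lines, was at 37.7, 37.6 and 36.9 CPM against 36.6, 35.8 and 34.6 CPM (log2 fold change -0.08, 95% interval -0.24 to 0.08). CLDN3 (0.12) and CLDN12 (0.15) had intervals that included 0. CLDN3 and CLDN4 are neighbours on chromosome 7, with 29.3 kb between them.

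Among the other tight junction genes 4 of 9 rose and none fell, with a median log2 fold change of 0.16. OCLN, occludin, rose from 42.1, 44.1 and 45 CPM to 57.3, 61.3 and 62.9 CPM (log2 0.46, SE 0.073, edgeR adjusted p = 6.01e-05). MARVELD2, or tricellulin, which seals the corners where cells meet, rose from 31.3, 31.2 and 28 CPM to 40.5, 37.2 and 41.8 CPM (log2 0.39, adjusted p = 0.00121). Both genes lie on chromosome 5 with 48 kb between them. TJP1 rose from 180.5, 171 and 165 CPM to 202, 213 and 212 CPM (log2 0.27, adjusted p = 0.00148), and none of these 3 genes overlapped between the groups. F11R, the adhesion molecule JAM-A, was called at 0.24 (adjusted p = 0.0391), with 42.2, 48 and 51.9 CPM against 37.1, 43.1 and 39.3 CPM, which overlap. Its call ended with DESeq2 (adjusted p = 0.0663), with limma on both FPKM scales, and without KD library 3, control 1 or control 3, and a same-strand gene with 98 counts over the 12 libraries overlaps 36.6% of its exonic bases. MARVELD3 (0.16), whose exons overlap those of PHLPP2 on the opposite strand, CXADR (0.07), CGN (0.05), TJP3 (0.01) and LSR (-0.11) were not called.

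Adherens junction and cell adhesion genes showed 1 rise in 4, that of the adhesion molecule EPCAM and not of E-cadherin or a catenin. EPCAM rose from 259, 285 and 268 CPM to 350.1, 376 and 362 CPM (log2 0.42, SE 0.058, edgeR adjusted p = 1.24e-05). CDH1 was at 201, 193 and 188 CPM in the controls and at 206, 210.1 and 205 CPM in the libraries labelled KD. Its groups did not overlap, but its log2 fold change of 0.09 (95% interval -0.03 to 0.21) was not called (adjusted p = 0.284). The catenin genes CTNNA1 (0.07) and CTNND1 (0.23) were not called either. The E-cadherin gene itself was thus called in neither line.

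Desmosomal genes were divided, with 1 of 7 higher, 1 lower and a median of -0.01. PKP2, a plakophilin, rose from 100.2, 93 and 98.5 CPM to 126, 131 and 135 CPM (log2 0.42, SE 0.063, edgeR adjusted p = 3.18e-05). JUP, shared by desmosomes and adherens junctions, fell from 143, 118 and 129 CPM to 112, 85.2 and 101 CPM (log2 -0.39, SE 0.083, adjusted p = 0.00112). All 3 libraries labelled KD lay below the lowest JUP control. PKP3 (-0.21, adjusted p = 0.0523) and DSC2 (-0.21, adjusted p = 0.0607) lay just outside the threshold. Both were called lower without KD library 1, which made 3 desmosomal genes lower, and PKP3 also with no low-count filter (adjusted p = 0.0196) and with all 12 libraries in 1 fit (0.0481). DSP (-0.01, 95% interval -0.11 to 0.10), DSG2 (0.11) and PERP (0.05) were not called. Library 2 labelled KD had the lowest value of its group for JUP, for DSC2 at 30.7 CPM and for PKP3 at 105 CPM. It was the lowest of its group in 18 of the 38 members and the highest in 12. This was not particular to it, since LoVo control 2, HCT116 control 3 and HCT116 OE 2 were each lowest in 17. Without KD library 2, 18 members were called, 17 higher and 1 lower.

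Polarity and apical traffic genes rose in 3 of 5. RAB25 had the largest change of all members, from 17.5, 15.5 and 16.1 CPM to 29.4, 29.6 and 27 CPM, 1.75-fold (log2 0.81, SE 0.096, edgeR adjusted p = 1.32e-06). Even so it stayed below the 54.1 to 60.1 CPM of the HCT116 controls. PATJ, a scaffold of the Crumbs complex, rose by 0.20 (adjusted p = 0.0178), from 121, 115 and 123 CPM to 136, 137 and 142 CPM. PARD3, the Par complex scaffold, rose by 0.18 (adjusted p = 0.0433), from 95, 91.2 and 89.2 CPM to 109, 97.9 and 106 CPM. Both of these small calls ended with limma on both FPKM scales. That of PATJ also ended without KD library 3, control 2 or control 3, and that of PARD3 with no low-count filter and without KD library 1 or 3 or any 1 of the controls. CRB3 (-0.01) and LLGL2 (0.08) were not called.

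Of the regulators, ST14 (the membrane protease matriptase) included, 3 of 7 rose and 1 fell, with the highest median of any group, 0.43. ELF3 rose from 163, 147 and 158 CPM to 239, 209.8 and 244 CPM (log2 0.56, SE 0.065, edgeR adjusted p = 1.06e-06). ESRP1 rose from 16.6, 18 and 17.3 CPM to 26.3, 29.3 and 26.5 CPM (log2 0.65, SE 0.095, adjusted p = 2.12e-05), still far under its level in HCT116. ESRP2 moved down, from 89, 83.6 and 93.2 CPM to 78.2, 74.6 and 80.5 CPM (log2 -0.20, adjusted p = 0.0334). The ESRP2 call ended with no low-count filter and without KD library 2 or 3 or control 1 or 3. GRHL2 was called at 0.43 (adjusted p = 0.0190), from 8.76, 10.7 and 9.13 CPM to 14.6, 12.6 and 11.5 CPM, and lost the call with DESeq2 (adjusted p = 0.0521), with limma on both FPKM scales, and without KD library 1, control 1 or control 3. OVOL1 (0.47, 95% interval -0.07 to 1.01), GRHL1 (-0.06) and ST14 (0.03) were not called, the first 2 at levels under 6 CPM in LoVo.

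**Figure D3:**
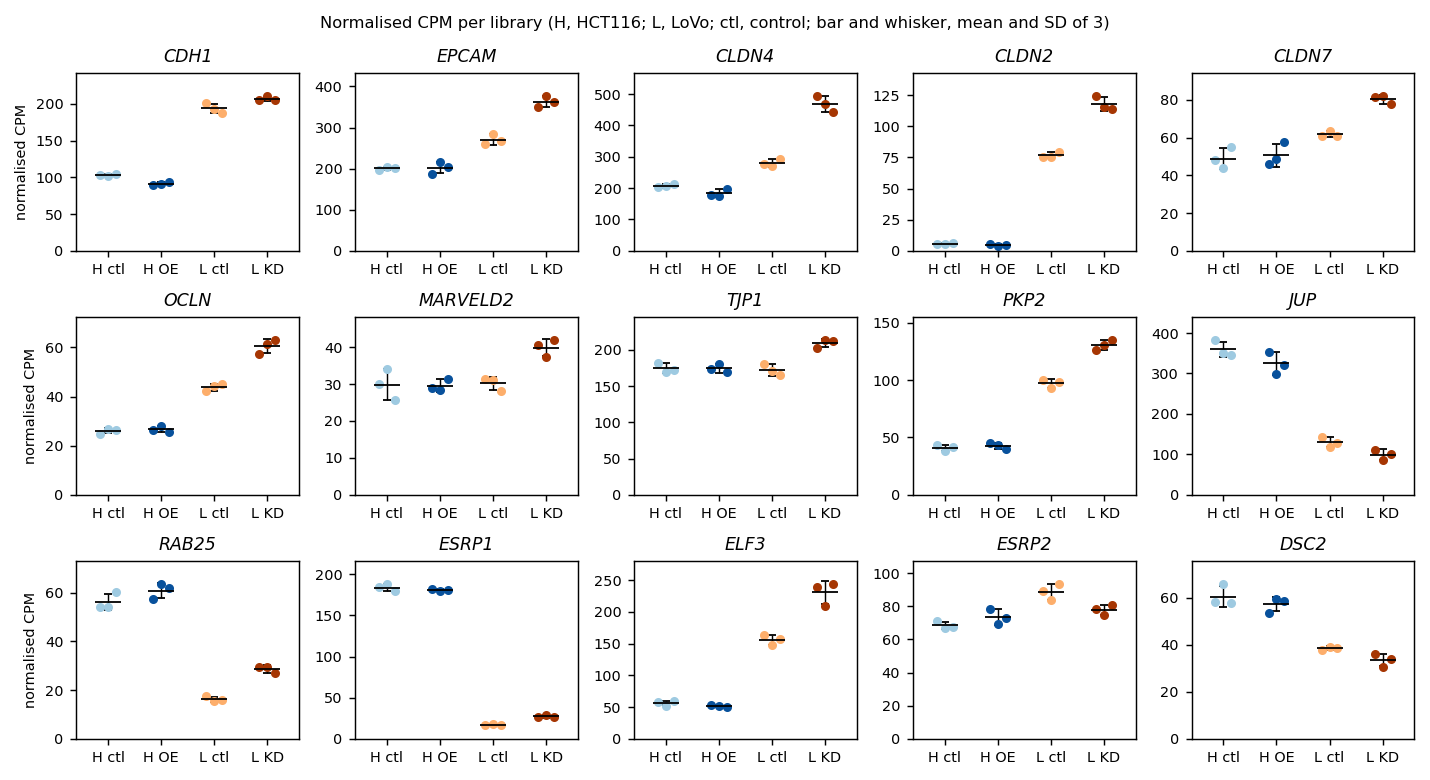
Normalised CPM in each library for 15 members, on linear axes that start at 0, with 1 point per library and a bar and whisker for the mean and SD of the 3 libraries of a group. CLDN4, RAB25 and ESRP1 lie higher in the libraries labelled KD than in the LoVo controls, JUP lies lower, and the HCT116 groups lie close together.

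Of the 17 calls in LoVo, 12 held in each of the 14 alternatives tried, those of RAB25, CLDN4, ESRP1, CLDN2, ELF3, OCLN, EPCAM, PKP2, MARVELD2, CLDN7, TJP1 and JUP. The number of members called ran from 12 to 20 over these alternatives. At its lowest, without LoVo control 3, it was 11 higher and 1 lower.

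**Figure D4:**
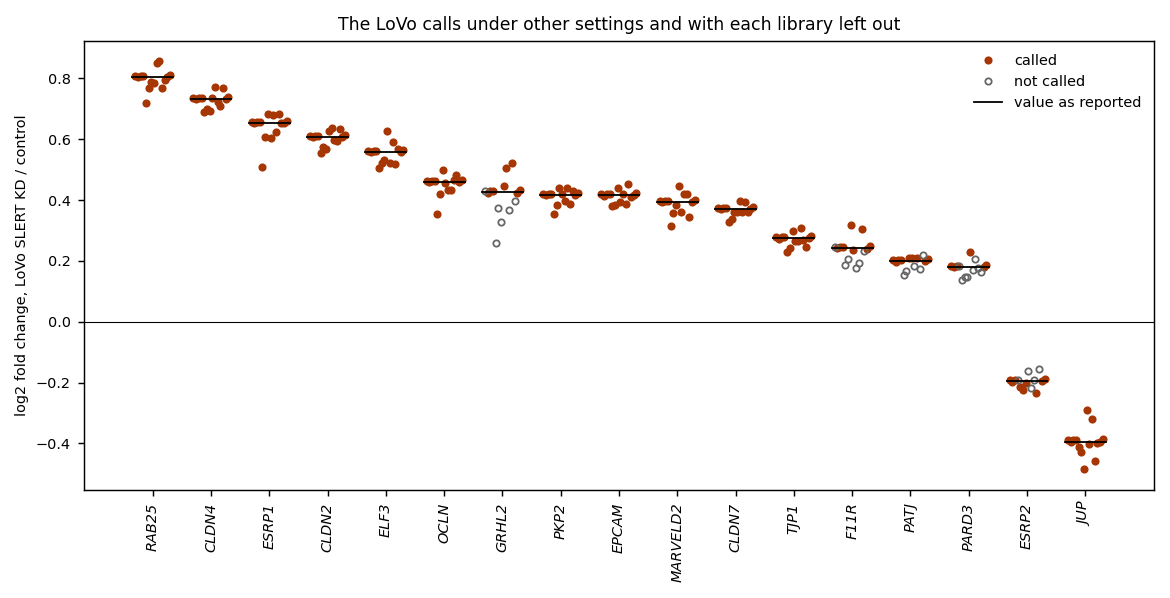
Log2 fold change in LoVo (libraries labelled KD against control) of the 17 called members as reported (line) and under each of the 14 alternatives (points, filled where called and open where not). Open points occur only for GRHL2, F11R, PATJ, PARD3 and ESRP2, and every point keeps the direction of its line.

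Other genes of the pathway, from a wider list of 82 junction, polarity and epithelial regulator genes, were tested in the same LoVo fit. Of the 60 tested, 6 were higher and 16 lower (36.7% called), where 12.6% of all genes were higher and 13.7% lower (26.3% called). Their median log2 fold change was -0.12. Of the 4 nectins, which start cell contacts, NECTIN1, NECTIN4 and NECTIN2 (-0.26, edgeR adjusted p = 0.00910) fell, and NECTIN3 was not called (0.75, adjusted p = 0.0584). NECTIN1 went from 43.4, 42.8 and 41.3 CPM to 18.8, 17.3 and 16.7 CPM (log2 -1.28, edgeR adjusted p = 1.63e-10). NECTIN4 went from 5.88, 5.18 and 5.66 CPM to 1.61, 1.89 and 1.31 CPM (log2 -1.80, adjusted p = 1.94e-06). The changes of NECTIN1 and NECTIN4 are larger than any of the 38 members'. CLDN11 fell by 0.95 on the log2 scale and SCRIB, the Scribble polarity scaffold, by 0.52. Those that rose include the epithelial factors KLF5 (0.50) and EHF (0.44), the recycling GTPase RAB11A (0.33) and the tricellular junction gene ILDR2 (0.55). In HCT116, 0 of the 59 tested genes of this list were called.

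The EMT list of 11 genes holds transcription factors, cadherins and the mesenchymal genes VIM and FN1. Of these, 7 were tested in LoVo, of which 0 were higher and 2 lower (28.6% called, near the 26.3% of all genes). ZEB1, a repressor of CDH1, fell from 25, 25.8 and 21.8 CPM to 18.3, 20 and 16.4 CPM (log2 -0.42, SE 0.10, edgeR adjusted p = 0.00432). SNAI2 had 10, 14 and 17 counts in the controls and 4, 0 and 5 counts in the libraries labelled KD (log2 -2.16, adjusted p = 0.0115), and its call ended without KD library 2 or control 3. In HCT116, 0 of 7 were called, and ZEB1 stood at 5.27, 4.82 and 5.82 CPM against 6.25, 7.13 and 4.31 CPM.

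To ask whether the lines differed in their change with more SLERT, the change from control to OE in HCT116 was set against the change from the libraries labelled KD to control in LoVo, in 1 fit of all 12 libraries. Of the 38 members, 11 differed (28.9%), where 14.6% of the 18199 genes tested did, and 21.7% of those at least as abundant as the lowest member. For 10 of them (26.3%, against 6.94% of all genes) the change was more positive in HCT116, and for 1 (2.63%, against 7.61%) it was more negative. Here too the members were chosen with earlier results known, and the part of that choice in these shares was not tested. The 10 rose in the LoVo libraries labelled KD and were not called in HCT116. A more positive change need not be an opposite one. In HCT116, CLDN4 (-0.17), ELF3 (-0.12), ESRP1 (-0.02) and MARVELD2 (-0.01) lay below 0, as did their change from KD to control in LoVo. RAB25 (0.13), PKP2 (0.08), CLDN7 (0.06), OCLN (0.04), EPCAM (0.02) and TJP1 (0.01) lay above 0 in HCT116. The HCT116 signs of CLDN7, EPCAM, TJP1 and MARVELD2 changed between alternatives, so these signs do not show an opposite change. RAB25 differed most, by 0.93 on the log2 scale (SE 0.11, edgeR adjusted p = 1.64e-06), followed by ESRP1 at 0.64 and CLDN4 at 0.57. JUP differed the other way, by -0.53 (adjusted p = 0.00150). CDH1 did not pass the test (-0.09, 95% interval -0.24 to 0.07, adjusted p = 0.496), nor did CLDN2 (0.38, adjusted p = 0.0847), which was called in LoVo. CLDN2 was at 5.55, 4.25 and 4.93 CPM with OE, so its change in HCT116 was measured on few counts.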

How the data were processed

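Libraries were made from 1 ug of Trizol-extracted total RNA with a TruSeq kit, per the labels' protocols. The submitters' processing notes name HISAT2 2.1.0 and GRCh38. The counter, annotation release and strand setting were not given in the sources used here, and overlapping genes may share reads. The authors deposited whole-number read counts per Ensembl gene, not normalised, and FPKM values. Each deposited FPKM value equalled the count over gene length and column total, with a relative spread of the implied length of at most 5.19e-13. Symbols came from a gene name reference, with GENCODE v29 names where it had none, and coordinates came from GENCODE v29. The HCT116 controls were assigned from the empty-vector heading alone, the least certain mapping.

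Differences were tested with edgeR 4.0.16 in R 4.3.3 (quasi-likelihood F test, TMM factors, filterByExpr), fitted across all genes of the groups compared, with Benjamini-Hochberg adjustment over all genes tested and calls at an adjusted p under 0.05. CPM were scaled with TMM factors of all 12 libraries, and fold changes are log2. The members, the lists and the rule for naming genes were chosen with earlier results of these data known. Values in every library were planned for CDH1, EPCAM, OCLN and TJP1 and for the up to 10 called members of smallest p per direction. They were given in the comparisons within a line. Between the lines, and for the difference in change, some of these genes have log2 differences alone. Up to 4 genes per direction of the wider lists were named. Other genes named, such as CGN and TJP3 in HCT116, were chosen after their values were seen. Alternatives were DESeq2 1.42.0, RLE and upper quartile factors, no low-count filter, limma 3.58.1 on log2(FPKM + 1) and log2(FPKM + 0.1), each library left out in turn, a replicate block in LoVo and 1 fit of all libraries. The scripts were tested on simulated data. Depth was 14.46 to 17.23 M counts per library.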

Additional observations from a re-analysis of the deposited data

Results flagged for a closer look

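A difference between the lines in the change with more SLERT was called for 11 members, by the edgeR interaction test over all 12 libraries with Benjamini-Hochberg adjustment. The values are log2 differences, positive where the change was more positive in HCT116. In LoVo they rest on libraries labelled KD, in which a fall of the SLERT locus was not seen at the counts available. Among junction proteins, the differences were 0.57 for CLDN4 (adjusted p = 1.94e-05), 0.50 for OCLN (0.00206), 0.49 for PKP2 (0.000731), 0.43 for EPCAM (0.000495) and 0.43 for CLDN7 (0.0103). Smaller ones were 0.39 for MARVELD2 (0.0437) and 0.28 for TJP1 (0.0155). The traffic GTPase RAB25 differed by 0.93 (1.64e-06), and the regulators ESRP1 and ELF3 by 0.64 (2.73e-05) and 0.44 (0.00223). JUP had the only negative difference, -0.53 (0.00150). None of the 11 was called in HCT116 alone. Their log2 fold changes ran from -0.39 to 0.81 in LoVo and from -0.17 to 0.13 in HCT116. In 8 of the 11 the call held in all 18 alternatives. On both FPKM scales the calls of CLDN7, TJP1 and MARVELD2 ended, that of CLDN7 also without HCT116 OE 3 and that of TJP1 without LoVo control 3. That of MARVELD2 ended with upper quartile factors too, and without HCT116 control 1 or 3, OE 3, LoVo control 1 or 3, or KD library 1 or 3.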

How the results depend on the processing

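Among members, the number called was 0 in HCT116 under every alternative except without HCT116 control 3, so that leaving out 1 library gave 0 to 1. In LoVo it was 17, and 15 with DESeq2, 16 with no filter, 13 with limma on either FPKM scale and 12 to 18 with a library left out. Between the control lines it was 32 or 33 of 38 throughout, and for the difference between the lines it was 11, and 8 to 12 over the alternatives. Counts over all genes moved more. In HCT116, 146 genes were called, against 281 with DESeq2, 256 with no filter, 7 on either FPKM scale and 37 to 287 with a library left out, and the share called higher was 55.5%, against 69.8% with DESeq2 and 41.8% with upper quartile factors. In LoVo 4278 were called, against 2845 and 2866 on the FPKM scales, where 34% and 34.2% were higher against 47.9%, and 2769 without control 3 and 2809 without control 1. For the difference 2648 were called, and 1787 to 3108 with a library left out, with 31.3% and 31.2% higher on the FPKM scales against 47.7%.

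Values near 0 changed sign without being called. In HCT116, the log2 fold change of TJP1 was -0.0048 with upper quartile factors, -0.013 and -0.014 with limma on log2(FPKM + 1) and log2(FPKM + 0.1) and -0.00071 with all 12 libraries in 1 fit, and ran from -0.021 (without OE 2) to 0.040 with a library left out. That of EPCAM was -0.0082 and -0.0084 on the FPKM scales and ran from -0.033 (without OE 2) to 0.066 with a library left out. SNORA5C in LoVo was 0.023 and 0.038 on the FPKM scales and 0.013 with the replicate block, and ran from -0.21 to 0.45 (without control 3) with a library left out. Between the control lines, TJP1 was 0.025 with upper quartile factors, 0.080 and 0.084 on the FPKM scales, and -0.043 to 0.023 (without LoVo control 3) with a library left out. The cause was not tested.

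In LoVo, the deviations of same-numbered libraries correlated at 0.122, 0.159 and 0.000819, and those of differently numbered libraries at -0.149 to 0.0374. The numbers were not taken to pair the samples, and these values do not settle whether they do. With the replicate number as a block, 20 members were called (16 higher and 4 lower, PKP3 and DSC2 now among the lower) and 5588 genes. No paired analysis was possible in HCT116 or between the lines because the HCT116 control columns carry no number of a labelled sample. With 3 libraries a group, changes of members at under 6 CPM in LoVo, such as OVOL1, had 95% intervals of up to -0.07 to 1.01.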
